A study of Mus musculus with 288 samples.

Results

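Interferon-stimulated genes are switched on when a cell senses interferon, and 9 of them were followed here across tissues, treatments and times of day. They are Isg15, Ifit1, Ifit3, Irf7, Irf9, Stat2, Oasl2, Usp18 and Rsad2, chosen by name, and all 9 were found among the 35904 genes of each library. Male C57BL/6J mice of wild-type genotype, 8 weeks old, breathed room air throughout (normoxia) or went through intermittent hypoxia (IH, repeated drops in inspired oxygen) in their resting phase for 7 days. All mice, controls included, then spent 2 days in constant darkness and normoxia, and tissues were collected on the second of these days, so each library was made after IH had ended. RNA was measured in lung, liver, kidney, muscle, heart and cerebellum at 8 time points 3 h apart with 3 libraries each, for a total of 24 libraries in each tissue under each treatment. Levels are in TPM, a share of transcripts scaled for gene length and library total. The study's methods describe several organs taken from the mice of each time point, and the labels do not record which libraries came from the same mouse.

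In the canonical pathway, type I interferons bind a receptor whose kinases phosphorylate Stat2, which joins Irf9 in the complex ISGF3. ISGF3 binds the interferon-stimulated response element in promoters and raises many genes, among them its own subunits. Irf7 amplifies the production of interferon, Usp18 damps the receptor and removes the ubiquitin-like protein Isg15 from its targets, and Ifit1, Ifit3, Oasl2 and Rsad2 (viperin) are antiviral effectors. A low level of these genes is kept up in healthy tissue, and immune cells and barrier organs such as the lung are known for it.

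Promoter windows from RefSeq (GRCm38.p6) are shown for the members that hold the core of that response element, here GAAANNGAAA on either strand, within the 300 bases that run from 250 before to 50 after the annotated start. Of the 9 members, 8 had a promoter entry, 5 of them held a match, and 1131 of all 32851 promoters did (3.44%). The windows are written along the gene's strand, and the capitals mark the matches with 15 bases on each side.
Isg15, chr4:156200860-156200911, minus strand, 3 overlapping matches between 78 and 66 bases before the start: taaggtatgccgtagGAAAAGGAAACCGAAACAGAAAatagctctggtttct
Ifit1, chr19:34640770-34640828, plus strand, 2 matches 104 and 85 bases before the start: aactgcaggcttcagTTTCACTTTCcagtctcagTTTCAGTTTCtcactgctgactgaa
Ifit3, chr19:34583358-34583431, plus strand, 2 matches 156 and 122 bases before the start: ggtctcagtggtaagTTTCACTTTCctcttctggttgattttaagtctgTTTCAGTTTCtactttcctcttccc
Rsad2, chr12:26456548-26456587, minus strand, 1 match 120 bases before the start: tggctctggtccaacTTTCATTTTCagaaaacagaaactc
Stat2, chr10:128270261-128270300, plus strand, 1 match 222 bases before the start: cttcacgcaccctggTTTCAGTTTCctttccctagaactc
No match stood in the windows of Irf7, Oasl2 or the 2 annotated starts of Irf9, which says only that these letters were not found there. Usp18 had no entry.

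All 9 are protein-coding genes, and their positions are given on GRCm38 from GENCODE. Ifit3 (chr19:34583531-34588731) and Ifit1 (chr19:34640871-34650009) lie in a cluster with their relatives Ifit2 (chr19:34550694-34576419) and Ifit3b (chr19:34607970-34613401). Oasl2 (chr5:114896936-114912234) lies beside its relative Oasl1 (chr5:114923240-114937915). Isg15 lies at chr4:156199424-156200818, Irf7 at chr7:141262706-141266481, Irf9 at chr14:55603571-55610030, Stat2 at chr10:128270559-128292849, Usp18 at chr6:121245906-121270917 and Rsad2 at chr12:26442746-26456452. Ifit3b was listed at 13.8 ± 2.79 TPM in the normoxic lung (SD, n = 24), and Ifit3 and Ifit3b are near copies whose reads the authors' counting could split, so their separate levels are uncertain.

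Marker genes set the tissues apart as labelled, with 5 of 5 markers highest in their own tissue for each of the 6 tissues. In 4 tissues 1 library stood apart. The liver IH library of replicate 2 at 13:30 had a mean correlation of 0.696 with the other liver libraries, against a tissue median of 0.959, and held heart markers at 33.4% of their level in the heart, where the next liver library held 0.326%. The cerebellum IH library of replicate 3 at 1:30 had a mean correlation of 0.766 against a median of 0.942, with heart markers at 41.3% of the heart level against 23.4% in the next cerebellar library. The lung IH library of replicate 2 at 1:30 (0.883 against a median of 0.962) and the heart normoxia library of replicate 3 at 7:30 (0.826 against 0.963) also correlated weakly with their tissue. The first held the highest lung level after IH of Stat2, Irf7, Irf9, Oasl2 and Usp18, and the second the highest normoxic heart level of Isg15, Irf9 and Usp18. The tests of change after IH, of rhythm and of tissues were also run without these libraries, and are given both ways where they differ. The correlations, the changes by replicate number and the calls in the gene lists were not rerun without them. The number of genes above 0 TPM differed between treatments in the lung, with 22694 ± 737 in normoxia and 25455 ± 1529 after IH, and in the heart, with 25124 ± 1719 and 21447 ± 688 (SD, n = 24 each). With no read counts in the values, the depth of each library is unknown. None of the 2592 member values was 0.

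The members were expressed in each of the 6 tissues, and most of them were highest in the lung. In normoxia Isg15 reached 28.8 ± 4.37 TPM in the lung (SD, n = 24), 1.74 times its level in the heart, the next tissue, and was lowest in the kidney at 7.32 ± 1.96 TPM. Ifit3, the strongest member, reached 55.6 ± 12.4 TPM in the lung and 18.6 ± 3.75 TPM in the kidney, with 6.58 ± 2.06 TPM in the liver as its lowest mean. Irf9 (29.5 ± 4.42 TPM in the lung, 2.64 times the liver), Oasl2 (28.0 ± 5.52 TPM, 2.80 times the heart) and Usp18 (17.2 ± 2.23 TPM, 3.51 times the liver) shared this order at the top. For these 5 genes the range of the mean ± SD in the lung did not overlap that of the next tissue. Oasl2 had the widest span of the 9, from 2.06 ± 0.740 TPM in the liver to a lung level 13.6 times as high.

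The other members departed from this order. Ifit1, an RNA-binding effector, was highest in the lung at 10.2 ± 1.54 TPM, but the cerebellum at 7.45 ± 4.49 TPM did not differ from it beyond the spread. Its level in single cerebellar libraries under normoxia ran from 2.55 TPM over a median of 6.23 to 20.5 TPM. Irf7 and Stat2 were highest in the liver, at 17.5 ± 4.19 and 25.9 ± 6.01 TPM, within the spread of the lung at 13.4 ± 2.73 and 19.6 ± 3.35 TPM. Rsad2 was highest in the heart (10.4 ± 2.97 TPM) and kidney (9.68 ± 2.62 TPM), ahead of the lung at 6.63 ± 1.68 TPM, and these neighbours overlapped in turn. Irf7 in the cerebellum stood below every other tissue at 2.00 ± 0.838 TPM, and the kidney, the next lowest, was 3.44 times as high. Usp18 in muscle (3.93 ± 0.730 TPM) was also clear of the kidney (2.43 ± 0.667 TPM), and all remaining neighbours overlapped. In whole tissue, a difference in the number of expressing cells and a difference in RNA per cell cannot be told apart. The summed level of 20 leukocyte markers, none of which had a mean of 0 in any tissue, was also highest in the lung, at 8079 ± 1020 TPM in normoxia (4091 to 9848), against 577 ± 443 TPM in muscle (231 to 1741) and 78.8 ± 13.3 TPM in the kidney (56.4 to 111). Most of it was the myeloid gene Lyz2 in the lung, and without Lyz2 the mean sums were 666 TPM in the lung, 353 TPM in muscle and 45.9 TPM in the kidney. The part of these cells in the order of the tissues was not tested.

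**Figure D1:**
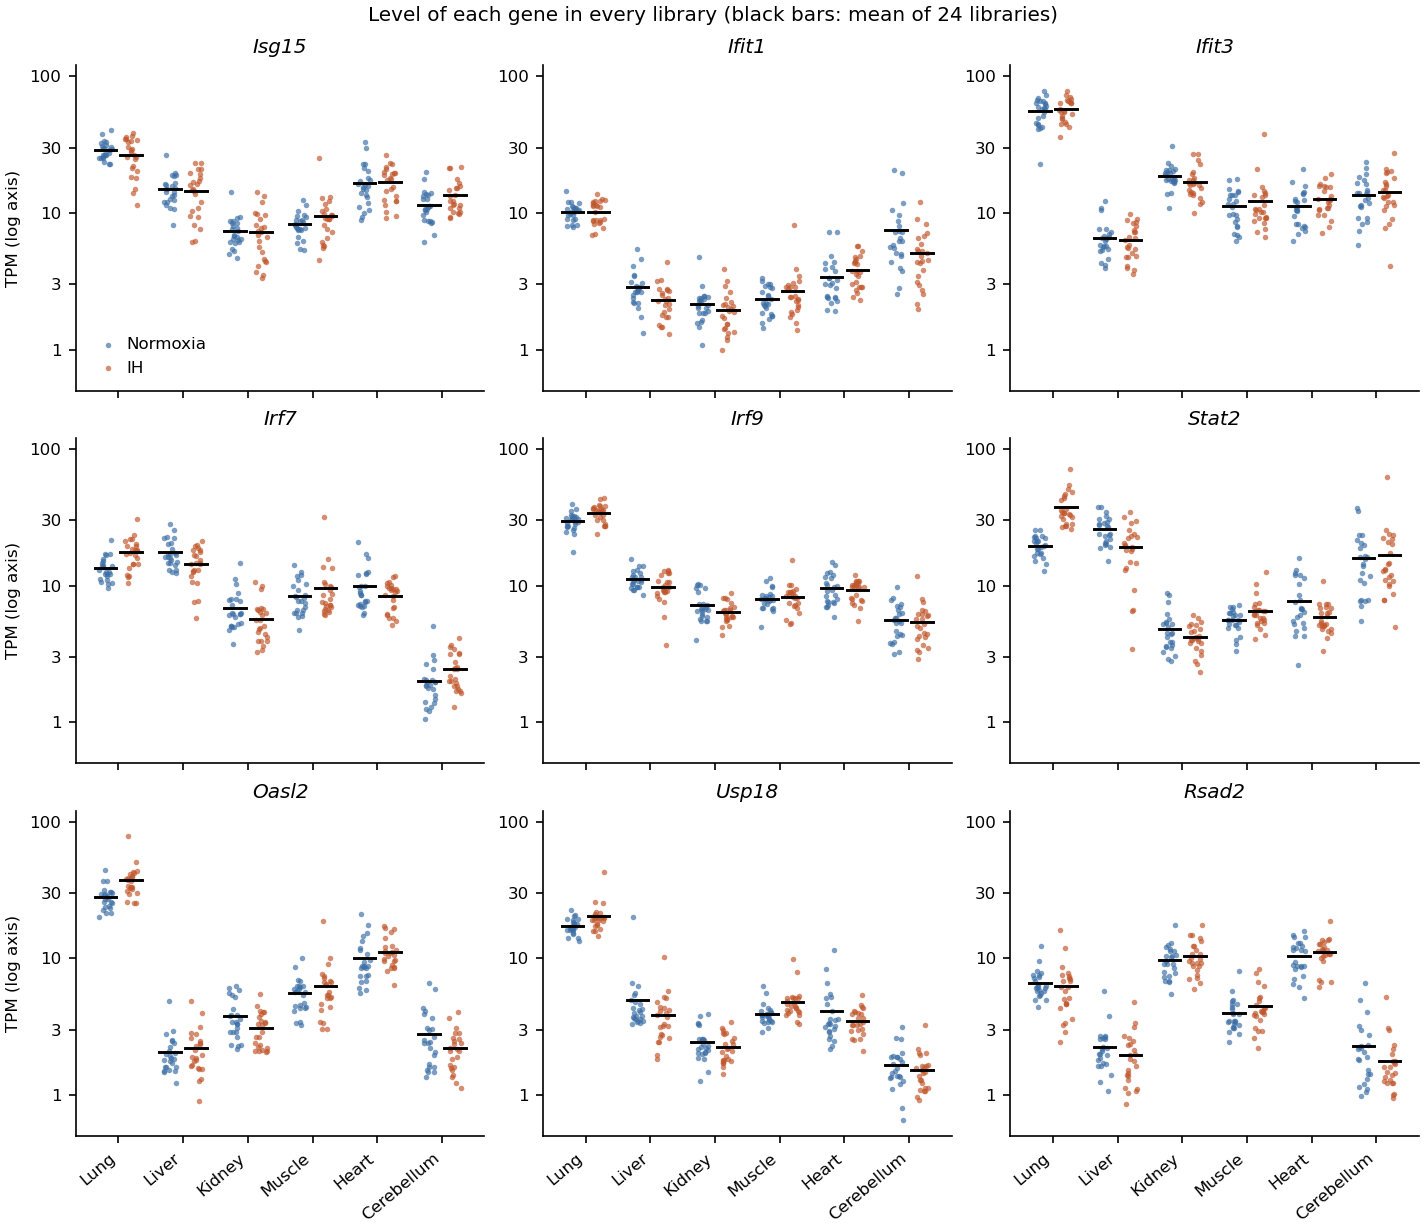
Level of each of the 9 genes in every library (TPM, log axis) by tissue, with normoxia and IH as separate colours and black bars at the mean of 24 libraries. Isg15, Ifit3, Irf9, Oasl2 and Usp18 sit highest in the lung, in normoxia Irf7 and Stat2 overlap between liver and lung, and Rsad2 is highest in heart and kidney.

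Pooled over the 6 tissues, 8 of the members rose and fell together from library to library, and Stat2 hardly went with them. With each gene centred within tissue and treatment, Pearson's r of a member with the mean of the other 8 over all libraries was 0.737 for Isg15, 0.736 for Irf7, 0.736 for Oasl2, 0.735 for Ifit1, 0.662 for Irf9, 0.634 for Usp18, 0.511 for Ifit3 and 0.496 for Rsad2, but 0.113 for Stat2. These points share libraries and their scaling, so the values are descriptive. The median r over the 36 member pairs was highest in muscle (0.669) and kidney (0.668) and lowest in the lung (0.439) and cerebellum (0.366). Single pairs ran to 0.876 for Irf7 with Oasl2 in the lung, and down to -0.583 for Ifit3 with Usp18 in the lung and -0.528 for Ifit3 with Stat2 in the liver. In the kidney the lowest pair was Isg15 with Stat2 at 0.274, so Stat2 went with the other members there. The lowest pair in muscle was Usp18 with Rsad2, at 0.0795.

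The 10 other genes most like the mean of the members, among genes of at least 1 TPM in each tissue, were Rtp4 (r = 0.816), Gbp3 (0.741), Trim30a (0.726), Xaf1 (0.716), Slfn2 (0.696), Ifi204 (0.689), Mndal (0.679), Ms4a6c (0.634), Psmb9 (0.630) and Sp110 (0.628), over all libraries. Rtp4, Trim30a and Xaf1 stand on the list of other type I interferon-stimulated genes used here, and Gbp3 and Psmb9 on the list of interferon gamma targets.

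In the lung, where the members were strongest, Stat2 was the 1 member that passed the threshold for a change after IH, and it was higher. Normoxic lungs ran from 12.9 TPM over a median of 19.6 to 25.5 TPM, and lungs after IH from 25.7 over 33.9 to 70.6 TPM. In TPM as deposited, all 24 IH libraries lay above the highest normoxia library, at a ratio of means of 1.92. Once libraries were scaled to a common median of ratios, 20 of 24 did, and the ratio was 1.55. As deposited, 2908 of the 15426 lung genes tested were higher past an adjusted p of 0.05 and 1.5-fold by limma. How many genes separated as fully as Stat2 was not counted. The scaled values, as log2(TPM + 0.5), gave a change of 0.59 (SE 0.074, adjusted p = 1.72e-09 by limma), and mean Stat2 was higher after IH at 8 of 8 time points. At the adjusted p of 0.05 and 1.5-fold that define a call here, 2079 of the 15426 genes tested in the lung were called, 9.09% higher and 4.39% lower, so 1 member of 9 called higher was near the share among all genes. Stat2 stayed under the fold threshold when the pseudocount was 1 (0.58). Without the lung IH library of replicate 2 at 1:30, which held its highest level, it also stayed under that threshold (0.57, adjusted p = 1.53e-09), as it did without replicate 1 (0.56) and without replicate 2 (0.53). The adjusted p was below 0.05 in each of these cases, while the 1.5-fold call depended on the libraries kept. With a term for the number of detected genes, which differed between the treatments, its change was 0.25 (adjusted p = 0.0305). How far that number contributed was not tested.

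A further 4 members passed the adjusted p in the lung with a lower scaled level and a change under 1.5-fold. That made 5 of 9 members past the adjusted p alone, beside 70.4% of all lung genes, so such a pass does not set a member apart there. The modifier Isg15 ran from 22.8 TPM over a median of 28.0 to 40.1 TPM in normoxia and from 11.4 over 27.2 to 38.4 TPM after IH, so the groups overlapped, with a wider low end after IH. Its scaled log2 change was -0.46 (SE 0.106, adjusted p = 1.80e-04), and -0.16 (adjusted p = 0.162) in TPM as deposited. Rsad2 ran from 4.43 over 6.15 to 12.3 TPM in normoxia and from 2.46 over 5.99 to 16.0 TPM after IH. The highest and the lowest Rsad2 levels were both in the IH group, and the scaled change was -0.45 (SE 0.141, adjusted p = 0.00456). For Ifit1 the lowest, median and highest levels were 7.81, 10.3 and 14.4 TPM in normoxia and 6.86, 10.6 and 13.8 TPM after IH, which overlap along almost their whole length. Its scaled change was -0.30 (SE 0.068, adjusted p = 1.35e-04). That of Ifit3, at 55.6 ± 12.4 and 57.1 ± 10.7 TPM, was -0.25 (SE 0.093, adjusted p = 0.0162). On the deposited scale Rsad2 and Ifit1 changed by -0.17 and -0.01, none of the 4 passed, and Ifit3 turned to 0.05. Scaling moved the median of all lung genes from 0.21 to -0.08 on the log2 scale, and that of the members from 0.20 to -0.10, so the members moved with all genes on either scale.

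Irf7, Irf9, Oasl2 and Usp18 did not pass in the lung, with scaled changes of 0.06, -0.10, 0.09 and -0.09. As deposited, their mean levels in normoxia and after IH were 13.4 ± 2.73 and 17.5 ± 4.52 TPM for the interferon amplifier Irf7, 29.5 ± 4.42 and 34.0 ± 5.03 TPM for the ISGF3 subunit Irf9, 28.0 ± 5.52 and 37.4 ± 10.8 TPM for Oasl2, and 17.2 ± 2.23 and 20.4 ± 5.48 TPM for Usp18. On that scale all 4 passed the adjusted p, under 1.5-fold, with changes of 0.35 for Irf7 (adjusted p = 5.74e-04), 0.20 for Irf9 (adjusted p = 0.00481), 0.39 for Oasl2 (adjusted p = 1.20e-04) and 0.21 for Usp18 (adjusted p = 0.00798), where the median of all genes was 0.21. Irf7 and Oasl2 were then higher after IH at 8 of 8 time points. As deposited, 5 of 9 members passed the adjusted p in the lung, beside 10133 of the 15426 genes tested. Such a pass does not set a member apart on that scale either. The summed leukocyte markers were 8079 ± 1020 TPM in normoxia and 8442 ± 992 TPM after IH (6899 to 11017), and without Lyz2 666 and 818 TPM. Among all lung genes 4.39% were called lower after IH and 9.09% higher. Of the 20 leukocyte markers, 2 were called lower after IH in the lung, Cd79a (-0.89) and C1qa (-0.65), and 0 higher. Their part in the values of the members was not tested.

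**Figure D2:**
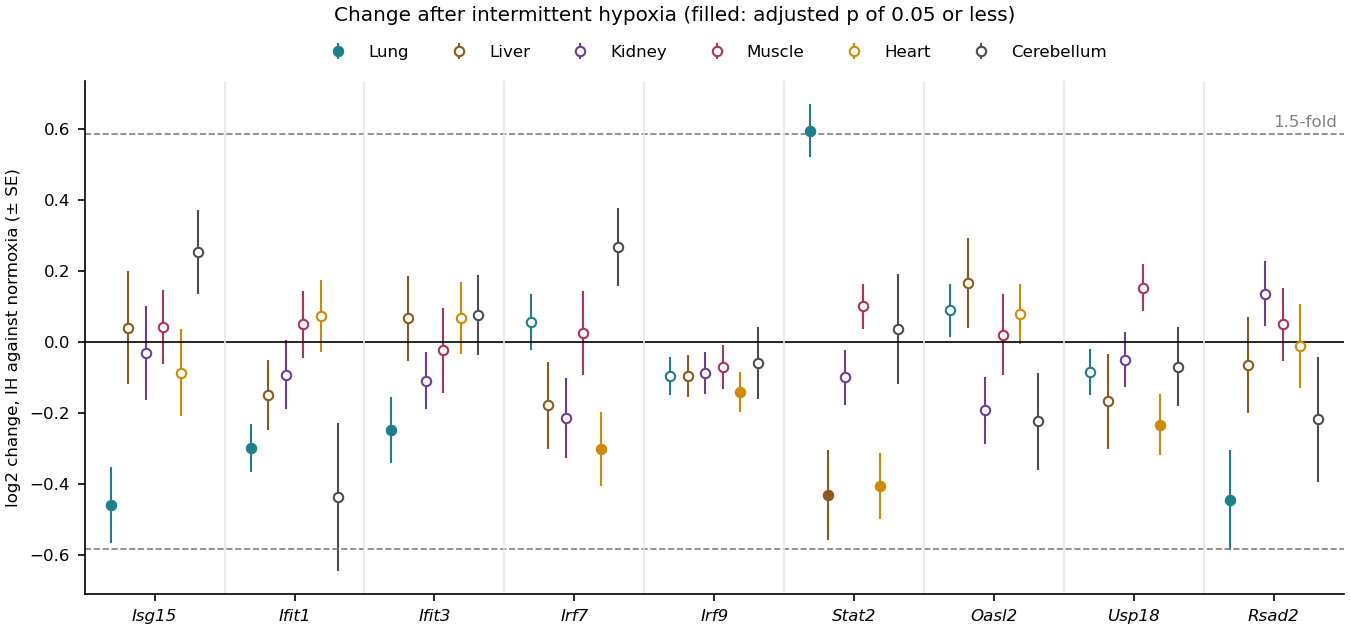
Change of each gene after IH on the log2(TPM + 0.5) scale with its standard error, by tissue in colour (24 libraries per treatment), with filled points where the adjusted p was 0.05 or less. Stat2 has a point at 0.59 in the lung and points at -0.43 and -0.41 in the liver and heart, and most other points lie between -0.3 and 0.3.

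In the liver Stat2 went the other way. It ran from 15.1 TPM over a median of 25.3 to 37.4 TPM in normoxia and from 3.42 over 19.2 to 34.5 TPM after IH, and the IH mean was lower at 8 of 8 time points although single libraries overlapped. The change was -0.43 (SE 0.128, adjusted p = 0.0110 by limma), under 1.5-fold. The lowest value came from the library that held heart transcripts, and without it the change was -0.37 (adjusted p = 0.0124). The loss of another replicate number mattered more, since the adjusted p was 0.195 without number 1 and 0.371 without number 2. No member was called in the liver, where 3.65% of 11334 genes were, and 1 of 9 passed the adjusted p alone, beside 24.2%. By unadjusted p, Stat2 was again the 1 member at 0.05 or less, beside 4195 of the 11334 genes.

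The heart had lower Stat2 as well, from 2.62 TPM over a median of 6.71 to 16.0 TPM in normoxia and from 3.31 over 5.40 to 10.8 TPM after IH. All IH libraries lay inside the normoxic range, and the scaled change was -0.41 (SE 0.093, adjusted p = 4.42e-04). Irf7 was at 9.93 ± 3.71 TPM in normoxia and 8.44 ± 1.95 TPM after IH (-0.30, adjusted p = 0.0164), with Usp18 at -0.23 (adjusted p = 0.0225) and the ISGF3 subunit Irf9 at -0.14 (adjusted p = 0.0392). None of the 4 reached 1.5-fold, so 0 members were called, against 2.95% of 12779 genes. Without adjustment 4 members had a p of 0.05 or less, beside 6645 of these genes. The adjusted p alone was passed by 4 of 9 members and by 45.2% of all genes. Without the heart normoxia library of replicate 3 at 7:30 these 4 still passed, with Stat2 at -0.41 (adjusted p = 5.28e-04). In TPM as deposited, 0 members passed the adjusted p in the heart, beside 5604 of 12779 genes, and Stat2 changed by -0.30 (adjusted p = 0.0660). The number of detected genes, which was lower after IH in the heart, and the scaling move with these values, and their part was not tested. With a term for that number, Stat2 was at -0.64 (adjusted p = 0.0299) and counted as called, beside 139 of 12779 genes.

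Kidney, muscle and cerebellum gave 0 called members and 0 members past the adjusted p by limma, against 0.783%, 0.374% and 2.64% of all genes called and 19.8%, 10.4% and 15.0% past the adjusted p. At an unadjusted p of 0.05 or less there were 1, 1 and 3 members, beside 4264 of 12902, 3063 of 12824 and 4514 of 14892 genes. Those were Oasl2 in the kidney (-0.19), Usp18 in muscle (0.15), and in the cerebellum Ifit1 (-0.44), Irf7 (0.27) and Isg15 (0.25). The kidney count depended on the fit. With a term for the number of detected genes, 6 of 9 members passed the adjusted p by limma there, beside 3107 of 12902 genes. The members' median was then -0.23, with 0 members higher, against 0.00 for all genes. Without replicate 2, 4 members passed in the kidney, beside 2531 of 12862 genes, and without replicate 1 or 3, 0 did. In the cerebellum Ifit1 ran from 2.55 TPM over 6.23 to 20.5 TPM in normoxia and from 1.99 over 4.69 to 11.9 TPM after IH (adjusted p = 0.149). The groups overlapped, and as deposited the upper tail was in normoxia. In scaled TPM the highest value was after IH, at 23.5 against 20.1 in normoxia. Without the cerebellar library that held heart transcripts the change was -0.53 (adjusted p = 0.0361). Isg15 ran from 6.14 over 10.9 to 19.9 TPM in normoxia there and from 9.13 over 12.3 to 21.8 TPM after IH, and its scaled mean was higher after IH at 8 of 8 time points. The highest value of Stat2 in the series after the lung's was also cerebellar, 62.4 TPM after IH at 1:30 in replicate 1, beside a median of 13.1 TPM.

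Over all 9 members, the median log2 change after IH was -0.10 for lung, -0.10 for liver, -0.09 for kidney, 0.04 for muscle, -0.09 for heart and -0.06 for cerebellum. The medians of all genes tested were -0.08, -0.01, -0.01, 0.00, 0.04 and -0.01. On the deposited scale the members' median was 0.20 in the lung and 0.03 in the heart, so its sign turned there.

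The change after IH differed between the 6 tissues for 5 of 9 members, by an F test of the treatment by tissue terms in limma over 9876 genes. These were Stat2 (adjusted p = 1.77e-10), Irf7 (adjusted p = 0.00392), Isg15 (adjusted p = 0.00720), Ifit1 (adjusted p = 0.0280) and Rsad2 (adjusted p = 0.0353). Oasl2 (0.0637), Usp18 (0.0870), Ifit3 (0.218) and Irf9 (0.971) did not pass. As 88.3% of all genes passed this test, such a difference does not set the members apart. Each library counted as independent in it. With libraries of the same treatment, time point and replicate number as a random block (estimated correlation 0.0309), 6 members passed, Oasl2 among them (adjusted p = 0.0461), and so did 8784 of the 9876 genes.

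The 3 libraries per time point carry replicate numbers, and the change of the members depended on the number. Within each number, 8 libraries per treatment were compared. The median change of the 9 members for numbers 1, 2 and 3 was -0.04, -0.01 and -0.28 in the lung. In the liver it was 0.02, 0.06 and -0.40, and in the kidney -0.10, 0.26 and -0.49. Muscle gave 0.02, 0.20 and -0.18, the heart -0.07, 0.03 and -0.32, and the cerebellum -0.03, -0.05 and 0.01. The median of all genes stayed between -0.09 and 0.06 throughout. In number 3, the members with a lower level after IH were 8 of 9 in the lung, liver and kidney, 7 in muscle and heart and 4 in the cerebellum. In number 2, all 9 were higher in kidney and muscle.

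Isg15 shows this most plainly. In the kidney its change was -0.05 in number 1, 0.59 in number 2 (adjusted p = 0.00884) and -0.64 in number 3 (adjusted p = 0.0405), and over all libraries it was -0.03. In the lung it was -0.16, -0.24 and -1.01, and that of Rsad2 was -0.05, -0.28 and -1.03, so the lower lung levels of these genes came mostly from number 3. Without number 3, Isg15 was at -0.19 (adjusted p = 0.0892) and Rsad2 at -0.16 (adjusted p = 0.392) in the lung. Stat2 kept another pattern, higher in the lung in each number (0.65, 0.69 and 0.41) and lower in the heart in each (-0.16, -0.54 and -0.49). Its liver changes were -0.57, -0.78 and 0.03.

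The levels show which libraries set these differences apart. As the mean log2 level of the 9 genes, number 3 had the lowest mean among IH libraries in each tissue, with 4.11 ± 0.236 in the lung against 4.42 ± 0.130 and 4.47 ± 0.194 for numbers 1 and 2 (SD, n = 8). In the kidney they were at 2.23 ± 0.242 against 2.50 ± 0.180 and 2.76 ± 0.249. Normoxic libraries of the 3 numbers were at 4.41 ± 0.180, 4.42 ± 0.0720 and 4.47 ± 0.103 in the lung. What the numbers stand for is not given in the labels, so a replicate number and the handling of its mice cannot be told apart.

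**Figure D3:**
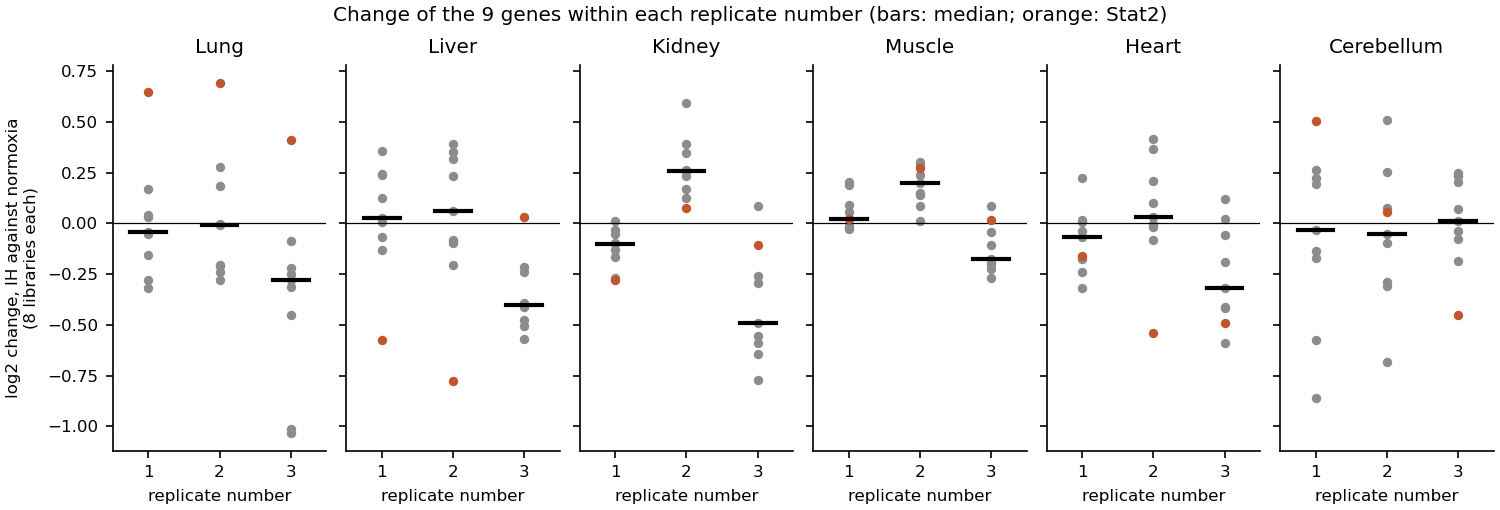
Log2 change after IH of each of the 9 genes within each replicate number (8 libraries per treatment), by tissue, with black bars at the median and Stat2 in orange. The medians of number 3 lie at -0.28, -0.40, -0.49, -0.18 and -0.32 in lung, liver, kidney, muscle and heart, and at 0.01 in the cerebellum.

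Libraries of different tissues with the same treatment, time point and replicate number resembled each other in the members. There are 48 such labels. The mean log2 level of the 9 genes, centred within tissue and treatment, was correlated over these 48 between each of the 15 tissue pairs. Pearson's r had a median of 0.440, from 0.116 for heart and cerebellum to 0.693 for lung and kidney. Spearman's rho had a median of 0.481 (0.0751 to 0.706), and r without the 2 farthest labels one of 0.385 (0.117 to 0.637). Points share time of day and replicate number. Centred by time point as well, the median was 0.564 (-0.0760 to 0.742), and centred by replicate number 0.374 (0.147 to 0.592).

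Much of the likeness was among IH libraries. Their median r was 0.584 (0.141 to 0.882) over the 15 pairs, and that of normoxic libraries 0.206 (-0.0844 to 0.768), with 24 labels each. For lung and kidney r was 0.882 after IH and 0.150 in normoxia, and for lung and liver 0.875 and 0.0531. Other pairs were the other way, muscle and heart at 0.566 after IH and 0.768 in normoxia, kidney and heart at 0.590 and 0.632, and muscle and cerebellum at 0.186 and 0.281. This difference between treatments was not tested.

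By member, the mean r over the 15 tissue pairs, with time points removed, was 0.437 for Irf9, 0.400 for Irf7, 0.362 for Oasl2, 0.331 for Isg15, 0.300 for Ifit3, 0.297 for Ifit1, 0.228 for Rsad2, 0.116 for Usp18 and 0.0244 for Stat2. The members' median was 0.300 and that of 9876 genes 0.00686. For Ifit3, Irf7 and Oasl2, r was above 0 in 15 of 15 pairs. The shared up and down of a label over tissues was thus present in 8 members to differing degrees and close to the level of all genes in Stat2.

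Of the 48 labels, 12 lay on the same side of the tissue mean in all 6 tissues, 4 above and 8 below. Among the 8 below were 6 of the 8 IH labels of replicate 3. The lowest was IH replicate 3 at 22:30, at -0.47 on the log2 scale over the 6 tissues. There Isg15 was at 15.0 TPM in the lung, 6.25 TPM in the liver and 3.70 TPM in the kidney. In replicates 1 and 2 of that time point it was at 33.5 and 29.0 TPM in the lung, 16.1 and 15.1 TPM in the liver and 7.20 and 9.80 TPM in the kidney. Isg15 under this label was thus low in lung, liver and kidney. The labels give neither the mouse nor the handling of the libraries, and the cause was not tested.

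The highest label was IH replicate 2 at 16:30 (0.36), most of all in muscle (1.11). That muscle library held 25.4 TPM of Isg15, 37.9 of Ifit3, 31.8 of Irf7 and 18.8 of Oasl2, where the muscle medians after IH were 9.15, 10.3, 7.81 and 5.52 TPM. It held the highest IH level of 9 of 9 members in muscle. IH replicate 2 at 13:30 was above the mean in all 6 tissues (0.33), and it includes the liver library with heart transcripts. IH replicate 3 at 1:30 reached 0.89 in the cerebellum, in the library with heart transcripts, and -0.12 in the lowest tissue.

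**Figure D4:**
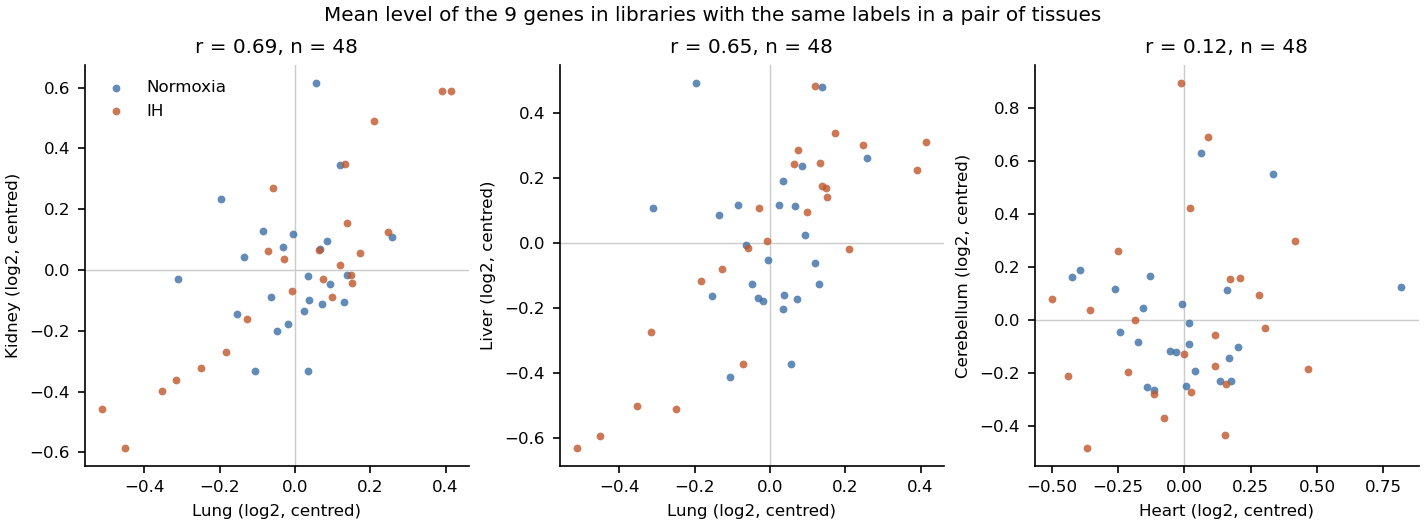
Mean log2 level of the 9 genes, centred within tissue and treatment, in libraries that carry the same treatment, time point and replicate number in a pair of tissues, with each point 1 label and r over 48 labels in the panel titles. Points for IH spread along the diagonal for lung and kidney (r = 0.69).

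With 8 time points the members could also be tested for a 24-h rhythm. A cosine was fitted to the log2 values of each treatment, in genes that reach 1 TPM in a library, and a gene was rhythmic at an adjusted p of 0.05 by limma's F test. In normoxia 7 of 54 member and tissue pairs were rhythmic, 1 of 9 members in the lung, 3 in the liver and 3 in muscle. The shares among all genes were 6.80%, 14.4% and 5.38% in these tissues, and 18.6%, 0.558% and 0.00% in kidney, heart and cerebellum, where 0 members passed. At an unadjusted p of 0.05 or less there were 4 members for kidney, 2 for heart and 2 for cerebellum, beside 5250 of 14706, 929 of 15770 and 4681 of 21372 genes. After IH 4 pairs were rhythmic, 1 in the lung (3.37% of all genes), 1 in the liver (2.33%) and 2 in muscle (7.43%), with 0 in kidney (5.38%), heart (3.45%) and cerebellum (0.00936%). The unadjusted count was 1 member in each of these latter 3 tissues, beside 2488, 2343 and 727 of the same genes.

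Ifit3 passed the rhythm test in lung and muscle under both treatments, with fitted peaks from 12.3 to 14.5 h. The labels do not say how these hours relate to clock time or to the earlier light cycle. In normoxic lungs it went from 42.8 ± 17.4 TPM at 1:30 (SD, n = 3) to 71.7 ± 6.13 TPM at 10:30 and back to 46.3 ± 2.75 TPM at 22:30. After IH it went from 43.0 ± 7.71 TPM at 1:30 to 67.4 ± 4.69 TPM at 16:30. The fitted peak was at 12.3 h in normoxia (log2 amplitude 0.36, adjusted p = 9.15e-04) and 13.1 h after IH (0.37, adjusted p = 0.00225). In muscle the peak was at 12.7 h (0.37, adjusted p = 0.0103) and 14.5 h (0.42, adjusted p = 0.0393), with normoxic levels from 6.62 ± 0.365 TPM at 1:30 to 15.2 ± 2.17 TPM at 10:30. The lung calls held in the rank test and in TPM as deposited, and the adjusted p rose to 0.0545 in normoxia without replicate 1 and after IH to 0.0632 and 0.0633 without replicates 1 and 3. The muscle calls were less stable. They were lost without any 1 replicate number and in the rank test under both treatments, and after IH also on the linear scale (adjusted p = 0.118) and in TPM as deposited (adjusted p = 0.133). Its near copy Ifit3b was also rhythmic in the lung, at 11.9 h in normoxia (adjusted p = 0.0182) and 12.7 h after IH (adjusted p = 0.0416), and these are not separate evidence if reads were split between both genes. The relative Ifit2 was rhythmic in no tissue.

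Stat2 passed in the liver under both treatments, with fitted peaks at 20.7 and 21.8 h. In normoxia it had its lowest time point mean at 10:30, with 18.1 ± 2.70 TPM, and its highest at 22:30, with 32.4 ± 4.88 TPM (peak 20.7 h, amplitude 0.38, adjusted p = 4.65e-04). After IH it went from 10.8 ± 10.2 TPM at 13:30 to 26.6 ± 6.87 TPM at 19:30 (peak 21.8 h, amplitude 0.53, adjusted p = 0.0271). The low point after IH includes the library with heart transcripts, and without it the amplitude was 0.47 (adjusted p = 0.00593). The call after IH was lost in the rank test (adjusted p = 0.0679), in TPM as deposited (adjusted p = 0.116), without replicate 1 (adjusted p = 0.557) and without replicate 3 (adjusted p = 0.0879), while that in normoxia held under all 8 alternatives run on it.

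Other pairs passed in normoxia or after IH, and each was lost without 2 or more of the replicate numbers. Irf7 peaked at 10.6 h in the normoxic liver (adjusted p = 0.0427), between 13.9 ± 1.92 TPM at 22:30 and 23.4 ± 1.89 TPM at 7:30, and at 10.9 h in normoxic muscle (adjusted p = 0.0302). Rsad2 peaked at 3.10 h in the normoxic liver (adjusted p = 0.00979), where it was highest at 7:30 with 3.62 ± 1.82 TPM, and at 19.0 h in muscle after IH (adjusted p = 0.0371). Usp18 peaked at 7.97 h in normoxic muscle (adjusted p = 0.0310). The muscle rhythm of Rsad2 after IH missed the threshold without the muscle library of replicate 2 at 16:30 (adjusted p = 0.0647).

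The rhythm itself changed between treatments in 0 of 54 pairs by limma's F test of the treatment by time terms, and 0.00% of all genes passed in each of the 6 tissues. At an unadjusted p of 0.05 or less, 1 member did, Stat2 in the kidney (p = 0.0359, adjusted p = 0.978 by limma). Among all genes, this unadjusted count was 447 for lung, 117 for liver, 393 for kidney, 701 for muscle, 109 for heart and 1056 for cerebellum. A rhythm called in 1 treatment and not in the other is therefore not shown to differ between them.

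**Figure D5:**
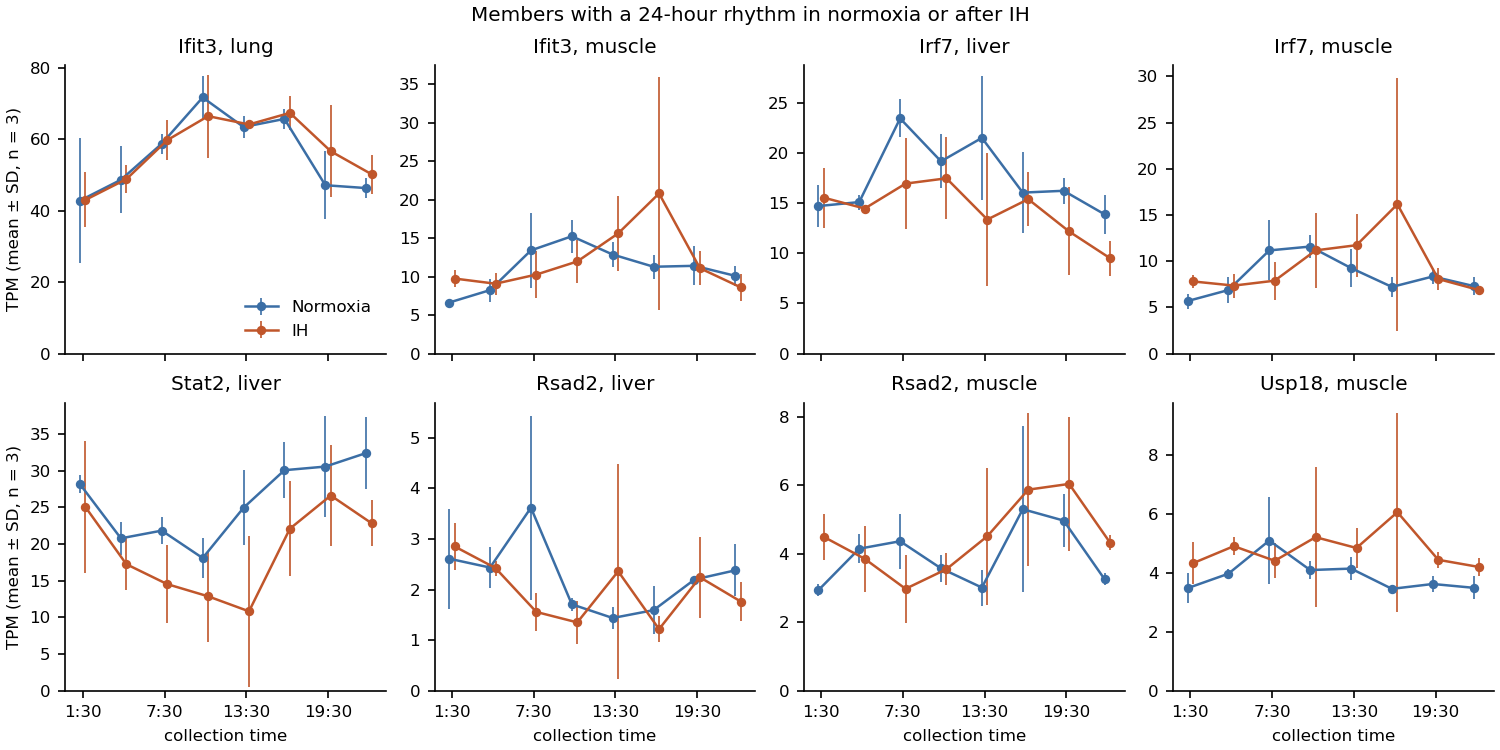
Level by collection time (TPM, mean ± SD of 3 libraries) for the pairs of gene and tissue that were rhythmic in normoxia or after IH, with a colour per treatment. Ifit3 in the lung is highest between 10:30 and 16:30 under both treatments, and Stat2 in the liver is highest from 19:30 to 22:30 in normoxia and at 19:30 after IH.

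The interferons themselves were scarcely measured. None of 12 ligand genes had a mean of 1 TPM in any tissue, and the highest library values were 2.75 TPM for Ifnk in the lung, 1.15 TPM for Ifna2 in the cerebellum and 1.07 TPM for Ifng in the lung. Upstream of the members, 0 of 6 receptor genes and 0 of 6 negative regulators were called in the lung. The adjusted p alone was passed by 1 receptor gene higher and 4 lower, and by 0 negative regulators higher and 3 lower. Among all lung genes 70.4% passed it in either direction. The median change was -0.31 for the receptors and -0.14 for the negative regulators, beside -0.08 for all genes. Of 12 nucleic acid sensors and adaptors 1 was called, the kinase Ikbke, at 4.39 ± 0.618 TPM in normoxia and 11.1 ± 4.06 TPM after IH (0.89, adjusted p = 1.29e-11). Among all lung genes 9.09% were called higher, so 1 of 12 was near that share. Ikbke acts upstream of interferon production, and a link to the higher Stat2 was not tested.

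Other targets moved in both directions in the lung, where 9.09% of all genes were called higher and 4.39% lower. Of 39 other type I interferon-stimulated genes tested, 1 was called higher, Mx1 (1.88 ± 0.576 to 4.49 ± 2.96 TPM, 0.67), and 2 lower, Lgals3bp (58.4 ± 10.3 to 42.6 ± 15.5 TPM, -0.82) and the membrane protein Ifitm3 (643 ± 94.8 to 492 ± 110 TPM, -0.71). The adjusted p alone was passed by 12 higher and 12 lower, beside 70.4% of all lung genes in either direction. The median was -0.02 over the list and -0.08 over all genes. Of 17 interferon gamma targets, 0 were called higher and 3 lower, Gbp2 (-0.69), Igtp (-0.61) and Irgm2 (-0.60), and the list's median was -0.30. The 3 enzymes that attach Isg15 to proteins gave 0 calls.

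Outside the lung few genes of these lists were called. In the liver Ifi27l2a was higher (13.0 ± 4.22 to 26.6 ± 24.4 TPM, 0.79) and Lgals3bp lower (32.6 ± 3.97 to 18.5 ± 6.93 TPM, -0.75), and 2 of 7 leukocyte markers tested were higher, S100a8 (0.75) and S100a9 (0.65), both neutrophil genes. Ifi27l2a and Lgals3bp were among 31 other type I interferon-stimulated genes tested there. Of all 11334 liver genes, 125 were called higher and 289 lower. In the kidney the interferon gamma target Tgtp1 was lower (11.4 ± 2.67 to 6.66 ± 2.07 TPM, -0.72), and in the cerebellum Parp9 (4.68 ± 5.64 to 2.12 ± 0.961 TPM, -0.63). Of all genes, 48 of 12902 were called lower in the kidney and 173 of 14892 in the cerebellum. Of 16 interferon gamma targets tested in the kidney, 0 passed the adjusted p higher and 9 lower, beside 19.8% of all kidney genes in either direction. Their median was -0.27, against -0.01 for all genes. Muscle and heart gave 0 calls in these lists, beside 0.374% and 2.95% of all genes called.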

How the data were processed

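The authors made directional poly(A) libraries and pseudoaligned reads with kallisto (the submitters' processing notes also name mm10, FastQC 0.11.3 and bcl2fastq), and the deposited values are TPM per gene. They hold no counts, so no count model was run. Libraries sum to 989211 to 999188 TPM, and 0 pairs of libraries were identical. The members and lists were chosen with earlier results of these data known.

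TPM was scaled within tissue by the median of ratios, taken as log2 with a pseudocount of 0.5, and tested with limma 3.58.1 in R 4.3.3 (treatment as the only term, trended variance) where the mean TPM of a gene reached 1. A call needed an adjusted p (Benjamini-Hochberg) of 0.05 and 1.5-fold. Tests are 2-sided. P-values measure the spread between libraries. Fold changes are on the log2(TPM + 0.5) scale and understate changes of low genes. Rhythm was a cosine and sine of 24 h, where the highest TPM of a gene reached 1. The authors' own rhythm tools were not rerun. Other values used Python 3.11.15, numpy 2.4.6, scipy 1.17.1, pandas 2.3.3 and matplotlib 3.10.9. The code was tested on simulated data.

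Named genes are the 9 members, near copies, up to 3 called genes per list and tissue, and the 10 genes most like the members. The lists are other type I interferon-stimulated genes, ISG15 conjugation enzymes, ligands, receptors, nucleic acid sensors (15 names, of which 12 were matched), negative regulators, interferon gamma targets and leukocyte markers. A further list is not reported here. The alternatives were TPM as deposited, other pseudocounts and filters, terms for time, replicate number or detected genes, a rank test, a linear scale, and leaving out replicates or libraries. Leaving out the muscle library of highest levels, the lung and heart libraries of lowest correlation, and the 2 liver and cerebellum libraries that stood apart in the tests of rhythm and of tissues, was chosen after seeing the data.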

Additional observations from a re-analysis of the deposited data

Results flagged for a closer look

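For 5 of 9 members the change after IH differed between the 6 tissues by the F test of the treatment by tissue terms in limma. The same test was passed by 88.3% of all 9876 genes, so a pass does not set these members apart. Stat2 had the smallest adjusted p (1.77e-10), with a log2 change of 0.59 in the lung and -0.43 in the liver. Irf7 (adjusted p = 0.00392) was at 0.27 in the cerebellum and -0.30 in the heart. Isg15 (adjusted p = 0.0072) was at -0.46 in the lung and 0.25 in the cerebellum. Ifit1 (adjusted p = 0.028) was at -0.44 in the cerebellum and 0.07 in the heart, and Rsad2 (adjusted p = 0.0353) at -0.45 in the lung and 0.13 in the kidney.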

How the results depend on the processing

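Called members were counted under each alternative. In the lung the count of 1 became 0 with a pseudocount of 1, where Stat2 was at 0.58, 0 without the lung IH library of replicate 2 at 1:30 (0.57), and 2 with a term for detected genes, which called Isg15 (-0.79) and Rsad2 (-0.84) in place of Stat2. In these fits 1757 of 15426, 1757 of 15328 and 1686 of 15426 lung genes were called. Leaving out 1 replicate number gave 0 (without number 2) to 2 (without number 1, Isg15 at -0.62 and Rsad2 at -0.65). Without number 2, 1509 of 15278 lung genes were called, and without number 1, 2056 of 15382. The counts of 0 became 1 in the heart with the term for detected genes (Stat2), and leaving out 1 replicate number gave 0 to 1 in the liver (Stat2 at -0.67 without number 3) and in the cerebellum (Ifit1 at -0.78 without number 3). In the fits that gave 1, the genes called were 139 of 12779 in the heart, 1491 of 11211 in the liver and 1973 of 15084 in the cerebellum. The main fits called 414 of 11334 liver genes and 393 of 14892 cerebellar genes. Rhythmic pairs in normoxia, 7 in all, were 3 by the rank test and 1 to 5 when a replicate number was left out. Genes rhythmic by the rank test were 712 of 20106 in the normoxic lung, 1557 of 14482 in liver and 369 of 15181 in muscle. Without a replicate number they were 144 to 747, 789 to 1971 and 212 to 389. Rhythmic pairs after IH, 4 in all, were 1 by the rank test, 2 on the linear scale, 1 in TPM as deposited, and 0 to 2 without a replicate number. Among the same lung, liver and muscle genes, 322, 291 and 521 were rhythmic after IH by the rank test. On the linear scale they were 652, 358 and 927, and as deposited 916, 313 and 489. Without a replicate number they were 86 to 231, 104 to 238 and 242 to 438. Stat2 in the normoxic liver passed under 8 of 8 alternatives that change its fit and Ifit3 in the normoxic lung under 7. The members whose change differed between tissues, 5 in all, were 3 to 4 without a replicate number. Among all 9876 genes, 6849, 6693 and 9149 passed without numbers 1, 2 and 3. The causes were not tested. Of 54 log2 changes 1 was called. This one, Stat2 in the lung, lost its call under 5 alternatives, 7 values gained one, and 47 changes of sign were all in values not called.

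Same-numbered libraries of both treatments deviated together in some tissues and apart in others (r of -0.519, 0.287 and -0.439 in the lung, 0.669, -0.0646 and 0.487 in the liver, 0.155, 0.375 and 0.650 in muscle), so the numbers were not treated as pairs. The replicate block gave 11 rhythmic pairs in normoxia and 5 after IH, left the called members at 1 in the lung, and gave 6 members with a difference between tissues. With it, rhythmic genes in normoxia were 2057 of 20106 in lung, 3734 of 14482 in liver and 3347 of 14706 in kidney. In muscle they were 1522 of 15181, in heart 92 of 15770 and in cerebellum 278 of 21372. After IH they were 1179, 642, 1108, 1521, 694 and 2 in the same order. The change differed between tissues for 8869 of 9876 genes. Without the liver and cerebellum libraries that stood apart, 5 pairs were rhythmic after IH and 6 members differed between tissues. Rhythmic after IH were then 799 of 14482 liver genes, and 8972 of 9876 genes differed between tissues. TPM keeps no depth, so low genes such as Usp18 in the cerebellum carry an unknown counting error.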
